A study of Medicago truncatula and Hordeum vulgare with 90 samples.

Results

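In barley, 65 genes rose in wild-type roots under each of 3 nutrient starvations and were lower in both the nsp1 and the nsp2 mutant under combined starvation. They were chosen by level from the 87541 gene identifiers of the barley count table. Of rows with identical counts the first identifier was kept, which left 59186. CPM values (counts scaled to library size with TMM normalization) were averaged by group and taken as log2(mean + 0.1). A mean of at least 0.5 CPM in some wild-type group was required, which 32135 genes reached. Of these, 1004 stood at least 1 log2 unit above the wild type at +P+N in all 3 starvation regimes, and 74 of the 1004 were at least 0.8 log2 units below the wild type at -P-N in both mutants. The 9 that the study prints with a gene name were then left out.

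RNA came from whole roots of barley cultivar Golden Promise grown for 21 days in sterilized sand, with modified BNM nutrient solution given on a regular schedule. The regimes were -P-N (no phosphate, no nitrate), -P+N (no phosphate, 5 mM nitrate), +P-N (0.5 mM phosphate, no nitrate) and +P+N (0.5 mM phosphate, 5 mM nitrate). The 14 groups of 3 libraries were MtNSP2ox and MtNSP1ox at +P+N, and nsp2, nsp1 and the wild type (GP) at all 4 regimes. The mutants are CRISPR/Cas9 alleles in Golden Promise, nsp2-1 and nsp1-1, with 1 allele for each gene. The paper describes 1 barley ortholog of NSP2 and 5 potential orthologs of NSP1, and reports mutation of the one it calls NSP1a. Other NSP1 copies may therefore remain in nsp1. MtNSP2ox carries pOsUBI3:MtNSP2-FLAG and MtNSP1ox carries pZmUBI:MtNSP1-FLAG, so the overexpressed proteins are those of the legume Medicago truncatula and the 2 transgenes have different ubiquitin promoters. The labels do not say that replicate libraries came from separate plants, so p-values measure the spread between these libraries. No table used here pairs barley identifiers with NSP1, NSP2 or root cell type markers, so neither the mutated genes nor the tissue could be checked by level. In whole roots, fewer cells of a type and less RNA per cell cannot be told apart.

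NSP1 and NSP2 are transcription regulators of the GRAS family, first known from legumes, where they act in signalling for root nodules. In M. truncatula and rice they are also needed for expression of strigolactone biosynthesis genes. Strigolactones are hormones made from carotenoids. Roots short of phosphate release them to the soil, where they stimulate arbuscular mycorrhizal fungi. The carotenoid precursor is built by enzymes such as DXS, GGPPS, PSY and ZDS, and is turned into strigolactone by the isomerase D27, the cleavage enzymes CCD7 and CCD8, and the cytochrome P450 MAX1.

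The 42 barley libraries held between 64919199 and 213268063 counts, with a median of 120015650. A group of 1354 co-varying genes, whose log2 CPM correlated over 0.8 with the inverse of the TMM factor, took between 62.5% and 92.8% of the counts of a library. No member was among them, and the other genes kept between 15303383 and 57675605 counts per library. All 65 members passed the filter of the tests, which kept 46523 genes.

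The values that chose the members are a description only. Over GP +P+N, the median change of the 65 in GP was 2.89 log2 units under combined starvation, 2.64 without phosphate and 3.14 without nitrate. The other 930 genes that rose in all 3 regimes had medians of 1.93, 1.78 and 1.82 in the same order. The median difference from GP at -P-N was -1.83 in nsp2 and -1.97 in nsp1. The largest change in GP at -P-N was in chr5Hg0538241. There it had 0.0321, 0.0872 and 0.063 CPM in nsp2 and 0, 0.0496 and 0.0359 CPM in nsp1, against 24.4, 22.8 and 16.8 CPM in GP. In GP it also had 46.5, 39.9 and 46.2 CPM at -P+N and 16.9, 12.8 and 14.6 CPM at +P-N, against 0.00977, 0.0245 and 0.0307 CPM at +P+N. In this gene the mutants stayed near the level of fed GP. The next largest change in GP at -P-N was in chr2Hg0115501, with 9.36, 6.95 and 7.49 CPM in nsp2 and 7.3, 9.34 and 8.71 CPM in nsp1 at -P-N, against 14.5, 16.0 and 19.3 CPM in GP. Here the mutants were lower than GP by about 1 log2 unit and stayed far above the fed GP libraries, at 0.117, 0.0163 and 0.0983 CPM.

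Members lay close to each threshold. For nsp1 at -P-N the nearest inside was chr7Hg0773021, at -0.81, and the nearest gene outside was chr3Hg0246941, at -0.80. For nsp2 they were chr5Hg0470671, at -0.82, and chrUng0806641, at -0.60. For GP -P+N they were chr6Hg0605241, at 1.07, and chr4Hg0418881, at 0.96. For GP +P-N they were chr7Hg0799781, at 1.16, and chr7Hg0799661, at 0.77. For GP -P-N the lowest member was chr7Hg0678961, at 1.19, and no gene was kept out by that threshold alone. The GP +P-N mean of chr7Hg0678961 rests on 1 library (3.40, 31.0 and 4.94 CPM, against 3.41, 2.02 and 3.24 CPM at +P+N). At -P-N it had 2.46, 3.81 and 5.01 CPM in nsp2 and 7.28, 1.67 and 2.17 CPM in nsp1. Both overlap GP, at 7.77, 4.45 and 7.93 CPM.

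**Figure D1:**
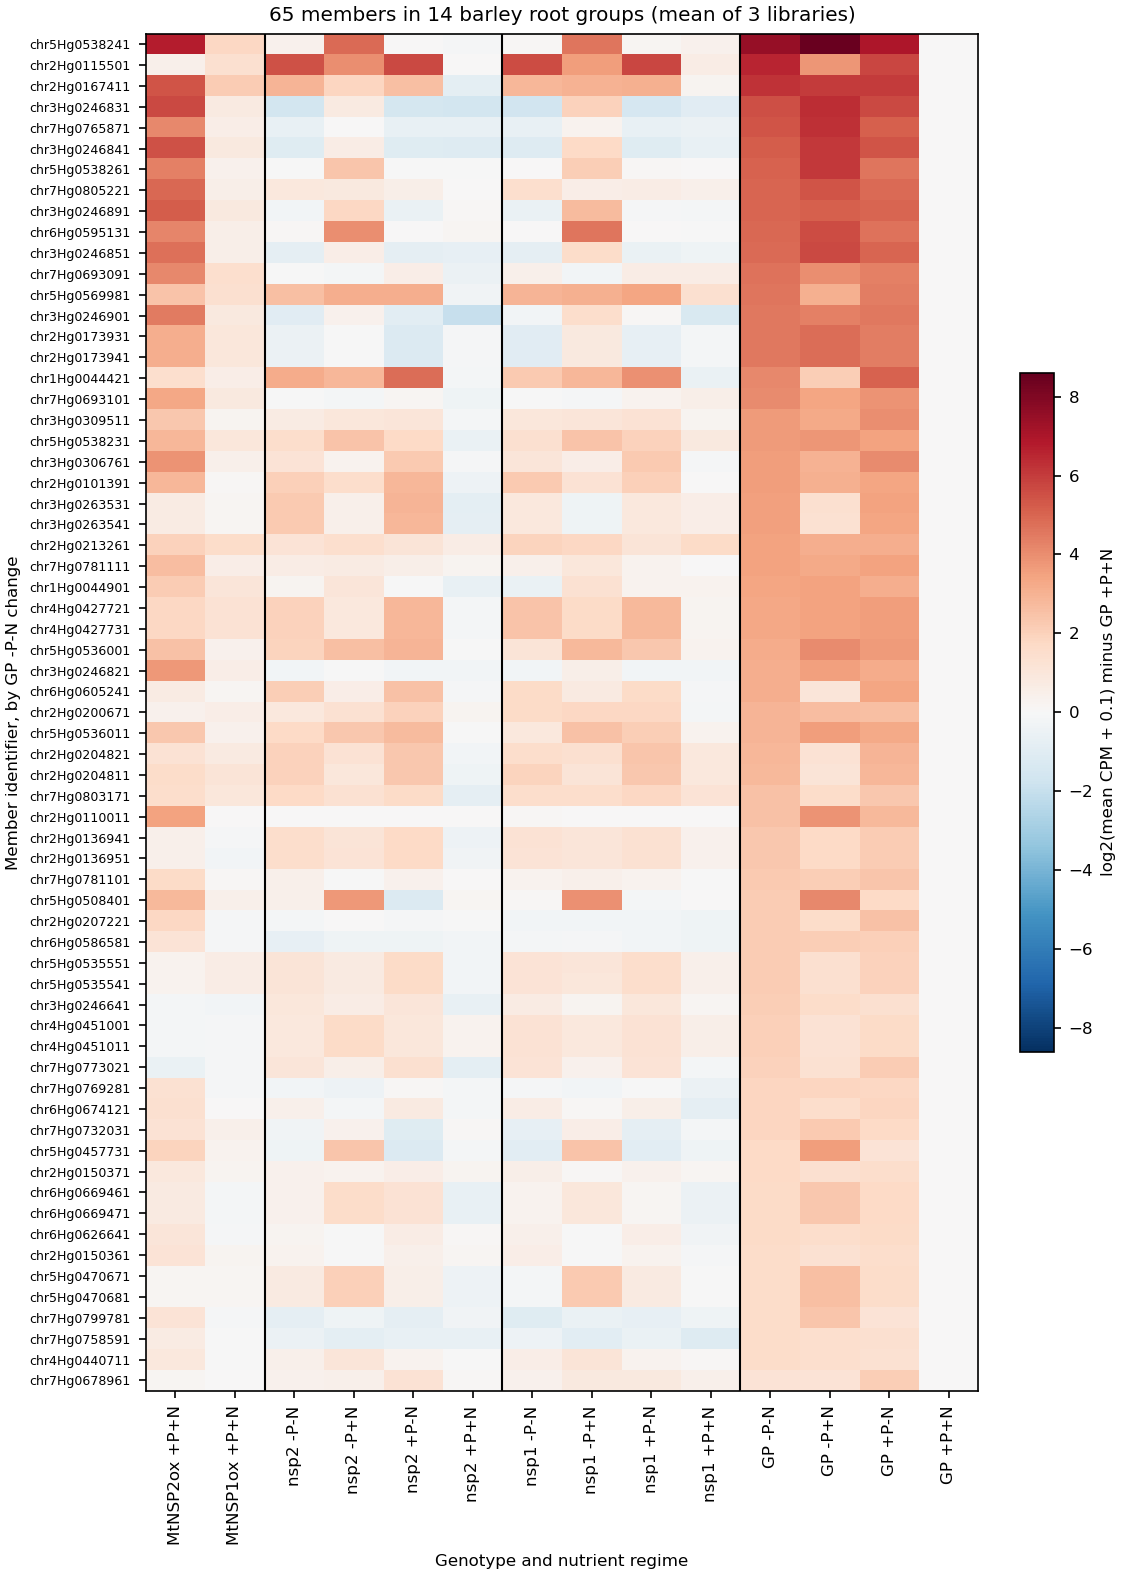
Rows are the 65 members ordered by their GP -P-N change, columns the 14 groups, and colour the log2(mean CPM + 0.1) of 3 libraries minus that of GP +P+N (blue below, red above). The GP starvation columns are red throughout by the choice of members, the -P-N columns of both mutants are paler, and many rows keep colour in a mutant at -P+N or +P-N.

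Many members are neighbours in the numbering of the identifiers. Of the 65, 35 fell into 15 runs, in which each identifier lay within 50 numbers of another member. Rows that are not members can lie between them, and how often other genes form such runs was not counted. Of the members, 14 lay within 50 identifier numbers of an identifier that the study names as a gene of carotenoid or strigolactone synthesis. Members fell on chromosomes 1 to 7, from 2 on chromosome 1 to 15 on chromosome 2. The longest run is on chromosome 3, where chr3Hg0246821, chr3Hg0246831, chr3Hg0246841, chr3Hg0246851, chr3Hg0246891 and chr3Hg0246901 surround CCD8 (chr3Hg0246861) and MAX1 (chr3Hg0246881). Other members stand next to D27 (chr7Hg0781101 and chr7Hg0781111), ZDS (chr2Hg0150361 and chr2Hg0150371), PSY (chr5Hg0457731), the second CCD8 identifier (chr3Hg0309511) and GGPPS (chr6Hg0595131), and chr6Hg0674121 lies near LUT5, a carotenoid hydroxylase. The counts of chr6Hg0595131 are identical to those of the GGPPS identifier, and chr3Hg0246891 follows MAX1 with a correlation of log2 CPM over 0.99. Within the members, 21 fell into 10 sets whose rows were nearly identical by the same correlation, which leaves 54 distinct profiles. Reads shared by near-identical copies cannot be told apart here, because the handling of multiply mapped reads is not given in the sources used here. The files give these identifiers no names, and no function is assigned to them.

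**Figure D2:**
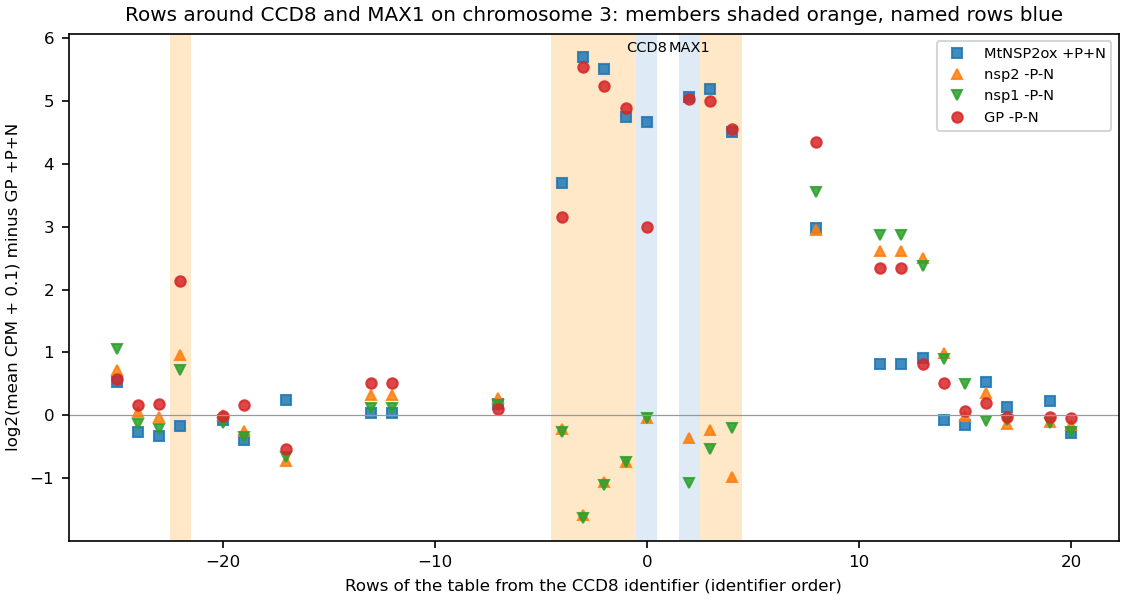
The x axis is the place of a row in the table counted from CCD8 on chromosome 3 and the y axis log2(mean CPM + 0.1) minus GP +P+N, for rows at the minimum level; squares are MtNSP2ox at +P+N, triangles nsp2 and nsp1 at -P-N, and circles GP at -P-N. Orange bands mark members and blue bands CCD8 and MAX1: the members beside them are high in MtNSP2ox and starved GP and near or below 0 in both mutants.

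The levels that chose the members did not come from the overexpressing roots, although the 9 names left out belong to a list that the study chose partly by a high level in MtNSP2ox. A direct comparison of the 2 lines asks in which of them these genes had the higher level in fed plants. The lines differ in promoter as well as in regulator, and transgene level was not measured here. Effects of the regulator, of its level and of the line thus cannot be told apart. In MtNSP2ox over MtNSP1ox, 42 of the 65 members were higher and 1 was lower, where 3.74% of the 46523 genes tested were higher and 5.05% lower (edgeR quasi-likelihood test, adjusted p under 0.05). The median member stood 1.32 log2 units higher, against -0.01 over all genes tested. Of the other 930 starvation-induced genes, 136 were higher and 60 lower, with a median of 0.05. All 11 named pathway identifiers were higher, the GGPPS identifier among them with the counts of a member. The study picked these names partly for activation in the same MtNSP2ox libraries, so their count is a description and not independent evidence. The share of counts taken by the co-varying genes ran from 67.6% to 83.5% in MtNSP2ox and from 63.3% to 73.5% in MtNSP1ox, and its part in the result was not tested. The 14 members near a named identifier were all among the 42, and 28 of the 51 others were. Of the 14, chr6Hg0595131 and chr3Hg0246891 share the profile of a named gene. This split rests on names picked partly from the same libraries, and reads shared with a named neighbour cannot be told apart. It is a description and not independent evidence.

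The largest difference was in chr2Hg0110011, with 0.927, 0.946 and 1.17 CPM in MtNSP2ox, against 0, 0 and 0.00908 CPM in MtNSP1ox. It rested on 289 counts in MtNSP2ox and 1 in MtNSP1ox, a ratio of 326 with a 95% counting interval of 58 to 12900 (exact binomial, counting error only). This gene had no counts in any GP library at +P+N and at most 0.0135 CPM in any mutant library of the 4 regimes. The next was chr7Hg0805221, with 2.62, 3.13 and 3.53 CPM in MtNSP2ox, against 0.0784, 0.0187 and 0.0363 CPM in MtNSP1ox (log2 fold change 6.12 ± 0.26 SE, edgeR adjusted p = 6.1e-07). For chr5Hg0538241 the libraries had 11, 12.3 and 15.1 CPM in MtNSP2ox, against 0.333, 0.373 and 0.227 CPM in MtNSP1ox (5.38 ± 0.17 SE, edgeR adjusted p = 6e-08). In chr5Hg0538241 the fed MtNSP2ox roots thus came close to GP at +P-N, and MtNSP1ox stayed below all starved GP libraries.

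The run beside CCD8 and MAX1 was higher in MtNSP2ox throughout. In chr3Hg0246831, MtNSP2ox had 15.4, 15.8 and 18.5 CPM and MtNSP1ox 0.451, 0.383 and 0.518 CPM (log2 fold change 5.21 ± 0.12 SE, edgeR adjusted p = 1.9e-08). In chr3Hg0246901, MtNSP2ox had 28.2, 33.6 and 38.6 CPM and MtNSP1ox 2.59, 2.58 and 2.43 CPM (3.74 ± 0.11 SE). The 6 members of the run differed by 3.74 to 5.21 log2 units, CCD8 by at least 89.3-fold against a floor of 3 counts per library, since it had no counts in MtNSP1ox, and MAX1 by 4.71 ± 0.12 (SE). Next to the other named genes the differences ran from 0.75 ± 0.15 (SE) for chr2Hg0150371 beside ZDS to 4.96 ± 0.25 (SE) for chr6Hg0595131. In between were chr2Hg0150361 beside ZDS, at 0.94 ± 0.11, chr6Hg0674121 near LUT5, at 1.48 ± 0.16, chr5Hg0457731 beside PSY, at 1.86 ± 0.30, chr3Hg0309511 beside the second CCD8 identifier, at 3.41 ± 0.39, and chr7Hg0781101 at 1.94 ± 0.27 and chr7Hg0781111 at 2.77 ± 0.36 beside D27, at 2.53 ± 0.16 (SE).

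The single member lower in MtNSP2ox was chr2Hg0115501, with 0.139, 0.148 and 0.118 CPM in MtNSP2ox, against 0.216, 0.42 and 0.427 CPM in MtNSP1ox (log2 fold change -1.38 ± 0.34 SE, edgeR adjusted p = 0.035). The 2 lines do not overlap in this gene, but both are far below starved GP, and the call is lost without either MtNSP1ox replicate 2 (adjusted p = 0.12), MtNSP1ox replicate 3 (adjusted p = 0.14) or any 1 MtNSP2ox library (adjusted p from 0.054 to 0.1), and with all 14 groups in one edgeR fit (adjusted p = 0.083). A further 22 members passed the threshold in neither direction. Set against fed GP, whose low level the choice of members used, the median member was 1.65 log2 units higher in MtNSP2ox and 0.41 higher in MtNSP1ox, given with no test.

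**Figure D3:**
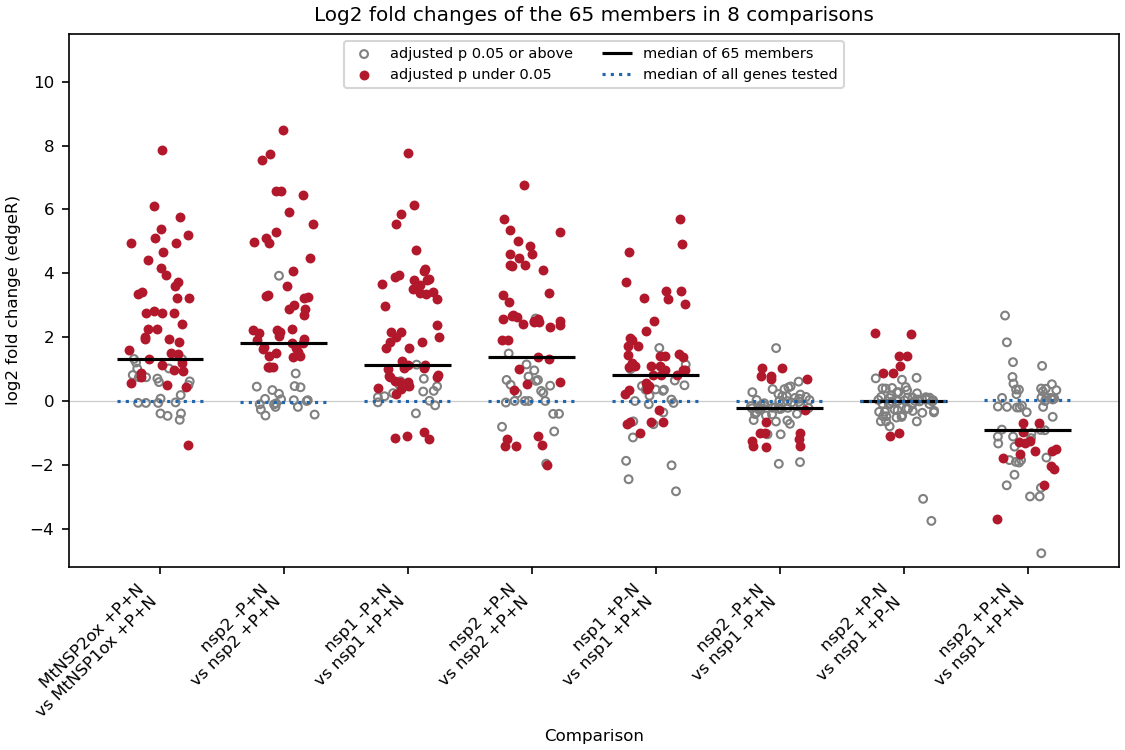
Each column is a comparison, each point a member at its edgeR log2 fold change (filled where the adjusted p is under 0.05), the solid bar the median of the 65 and the dotted bar the median of all genes tested. Most members lie above 0 in MtNSP2ox over MtNSP1ox and in both mutants under single starvation, with open points and some filled points below 0 in each mutant at +P-N.

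The members were chosen at -P-N. The rule used no mutant level from the other regimes, which show how much response to a single starvation remained. At -P+N over +P+N, 45 members were higher and none lower in nsp2, and 46 were higher and 4 lower in nsp1. Of all genes tested, 17.6% were higher and 15.8% lower in nsp2, and 20.2% and 17.7% in nsp1. No member passed lower in nsp2 at an unadjusted p under 0.05, and DESeq2 called none. At +P-N over +P+N, 36 members were higher and 6 lower in each mutant, where 19.7% of genes were higher and 21.8% lower in nsp2, and 23.4% and 27% in nsp1. The median member was 1.83 log2 units higher at -P+N in nsp2 and 1.14 in nsp1, and 1.37 higher at +P-N in nsp2 and 0.82 in nsp1. With members at 0 counts in a group set to their bound the medians were 1.68, 1.14, 1.31 and 0.82. Among the other 930 starvation-induced genes 94.2% were higher at -P+N in nsp2 and 89% in nsp1, and 98.5% and 88.9% at +P-N.

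The mutants share no library. At -P+N 38 members were higher in both, which is 84.4% of the nsp2 calls and 82.6% of the nsp1 calls among members, and 12 were higher in neither. Over all genes tested 12.2% were higher in both at -P+N, or 69.3% of the nsp2 calls and 60.1% of the nsp1 calls. At +P-N 31 members were higher in both, 86.1% of the calls in each mutant, and 24 were higher in neither. Over all genes 14.8% were higher in both at +P-N, or 75.5% of the nsp2 calls and 63.5% of the nsp1 calls. Neither overlap was tested. Of the 24, 22 were higher in MtNSP2ox over MtNSP1ox, which is 91.7% of them and 52.4% of the members called there. Of the 31 higher at +P-N in both mutants, 15 were called in MtNSP2ox over MtNSP1ox, or 48.4% of them and 35.7% of the calls. This is a description over members, many of which are neighbours, and the difference between these shares was not tested.

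Under phosphate starvation the members with the steepest GP response differed in how much remained. In chr5Hg0538241, nsp2 had 2.81, 3.81 and 3.75 CPM at -P+N, against 0, 0.0189 and 0.0223 CPM at +P+N (log2 fold change 7.72 ± 0.32 SE, edgeR adjusted p = 2.9e-07). In nsp1 it had 3.26, 2.50 and 2.78 CPM at -P+N, against 0.0359, 0.0748 and 0.0668 CPM at +P+N (5.53 ± 0.22 SE, edgeR adjusted p = 1.1e-10). Every mutant library at -P+N was far above its fed counterparts and far below GP at -P+N. Its neighbour chr5Hg0538261 had 0.487, 0.389 and 0.453 CPM in nsp2 at -P+N and no counts there at +P+N, which makes it at least 12.8-fold higher against 3 counts per library. In nsp1 the same gene had 109 counts at -P+N and 1 at +P+N, a ratio of 96 with a 95% counting interval of 16.9 to 3830. The largest change in nsp1 was in chr6Hg0595131, the row shared with GGPPS, with 2.58, 2.72 and 2.54 CPM at -P+N, against 0, 0.0107 and 0.0191 CPM at +P+N, or 839 counts against 3 (ratio 246, counting interval 84 to 1200). In nsp2 it had 1.70, 1.65 and 1.68 CPM at -P+N, against 0.0556, 0.0283 and 0 CPM at +P+N. In GP its mean was 5.37 CPM at -P+N, and the mutant libraries lay between this and their fed levels.

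In chr7Hg0765871 both mutants were without counts at -P-N and +P-N, while GP had 6.38, 7.07 and 5.79 CPM at -P-N. At -P+N it had 0.0937, 0.0441 and 0.0329 CPM in nsp2, with no counts at +P+N, which makes it at least 1.65-fold higher. In nsp1 it had 27 counts at -P+N and 2 at +P+N (ratio 11.9, counting interval 2.99 to 103). In fed MtNSP2ox roots the same gene had 2.30, 2.59 and 3.03 CPM, against 0.098, 0.149 and 0.127 CPM in MtNSP1ox (log2 fold change 4.40 ± 0.18 SE). By contrast chr2Hg0167411 kept a response to both single starvations. In nsp2 it had 0.684, 0.962 and 0.889 CPM at -P+N and 1.64, 1.22 and 1.53 CPM at +P-N, against 0.0556, 0.0660 and 0.0223 CPM at +P+N (log2 fold changes 4.07 ± 0.33 and 4.85 ± 0.31 SE). In nsp1 it had 2.14, 1.87 and 2.02 CPM at -P+N and 1.72, 2.38 and 2.26 CPM at +P-N, against 0.227, 0.203 and 0.220 CPM at +P+N (3.20 ± 0.16 and 3.23 ± 0.18 SE). All of these stayed below GP, which had 17.8, 16.5 and 17.5 CPM at -P+N and 17.9, 15.8 and 17.2 CPM at +P-N.

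Of the 11 named pathway identifiers, 7 were higher at -P+N in nsp2 and 8 in nsp1, and none was lower. GGPPS, PSY, ZDS, LUT5, both CCD8 identifiers and MAX1 passed in both, and D27 in nsp1. For CCD8 (chr3Hg0246861) the nsp2 call rests on 9 counts against 0, which shows no increase over a floor of 3 counts per library (0.783-fold), and in nsp1 it was at least 1.68-fold higher, on 18 counts against 0. At +P-N 5 were higher and 2 lower in nsp2, and 4 were higher and 1 lower in nsp1. DXS, ZDS, LUT5 and CCD8 (chr3Hg0309501) were higher in both and CCD7 in nsp2, whereas PSY was lower in both and MAX1 in nsp2. Of the 14 members near these identifiers, 8 were higher at -P+N in nsp2 and 11 in nsp1, and none was lower. At +P-N 3 of the 14 were higher and 2 lower in nsp2, and 4 were higher and 1 lower in nsp1, which for the higher calls is near the shares of all genes given above (19.7% in nsp2 and 23.4% in nsp1). At -P+N those shares were 17.6% in nsp2 and 20.2% in nsp1.

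In chr5Hg0508401, one of the members whose mutant level at -P+N was near that of GP, nsp2 had 42.4, 46.8 and 47.0 CPM at -P+N, against 3.95, 3.23 and 3.81 CPM at +P+N, and nsp1 had 54.2, 50.3 and 53.6 CPM at -P+N, against 3.00, 3.87 and 3.36 CPM at +P+N. GP had 62.4, 54.7 and 62.5 CPM at -P+N. At -P-N the same gene had 3.62, 5.21 and 4.82 CPM in nsp2 and 3.96, 3.00 and 3.79 CPM in nsp1, against 16.6, 16.2 and 13.8 CPM in GP. At -P-N both mutants were far below GP, whereas at -P+N their libraries lay just under the GP range.

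For nitrate starvation the members with the largest remaining response were chr2Hg0115501 in both mutants and chr1Hg0044421 in nsp1. In chr2Hg0115501, nsp2 had 6.79, 11.3 and 8.33 CPM at +P-N, against 0.0834, 0.0754 and 0.0780 CPM at +P+N (log2 fold change 6.76 ± 0.27 SE, edgeR adjusted p = 1.7e-07). In nsp1 it had 14, 4.77 and 9.85 CPM at +P-N, against 0.155, 0.203 and 0.172 CPM at +P+N (5.70 ± 0.42 SE, edgeR adjusted p = 5.8e-08). GP had 10.7, 8.30 and 9.67 CPM at +P-N, within the range of the mutants. In chr1Hg0044421, nsp2 had 14.5, 11.6 and 12.7 CPM and nsp1 6.20, 7.24 and 7.68 CPM at +P-N, beside 15.8, 16.0 and 16.7 CPM in GP. Its log2 fold change over +P+N in nsp1 was 4.93 ± 0.16 (SE, edgeR adjusted p = 1.3e-11). In nsp2 the second largest change was in chr5Hg0536011, which had 200 counts at +P-N and 3 at +P+N (ratio 59.1, counting interval 19.9 to 289).

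A few members went the other way at +P-N. In chr5Hg0457731, next to the carotenoid synthesis gene PSY, nsp2 had 0.0622, 0.0508 and 0.0558 CPM at +P-N, against 0.264, 0.179 and 0.234 CPM at +P+N (log2 fold change -1.99 ± 0.38 SE, edgeR adjusted p = 0.0025). In nsp1 it had 0.0773, 0.113 and 0.0759 CPM, against 0.179, 0.160 and 0.181 CPM at +P+N (-1.01 ± 0.36 SE, edgeR adjusted p = 0.03). PSY itself was lower too, at -1.94 ± 0.32 in nsp2 and -0.93 ± 0.17 in nsp1 (SE). The adjacent pair chr2Hg0173931 and chr2Hg0173941, whose rows are nearly identical, was also lower, the first at -1.41 ± 0.26 in nsp2 and -0.67 ± 0.23 in nsp1 (SE). In GP the same 3 members rose at +P-N, as the rule required of every member. Any member lower there in a mutant thus differs in sign from GP by the choice of members. Also lower in both mutants were chr5Hg0508401, at -1.39 ± 0.19 in nsp2 and -0.29 ± 0.11 in nsp1, and chr7Hg0732031, at -1.20 ± 0.11 in nsp2 and -0.66 ± 0.10 in nsp1 (SE), both named here after their values were seen. In nsp1 the counts at +P-N are few (31 for chr5Hg0457731 and 125 for chr2Hg0173931), and DESeq2 called neither there (adjusted p = 0.093 and 0.052) and called 1 member lower in all. With edgeR the count of 6 in nsp1 is 2 without nsp1 +P+N replicate 3 or nsp1 +P-N replicate 1, and 3 without nsp1 +P-N replicate 3. At -P+N in nsp1 the pair chr3Hg0263531 and chr3Hg0263541 was lower, at -1.17 ± 0.20 and -1.19 ± 0.21 (SE).

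**Figure D4:**
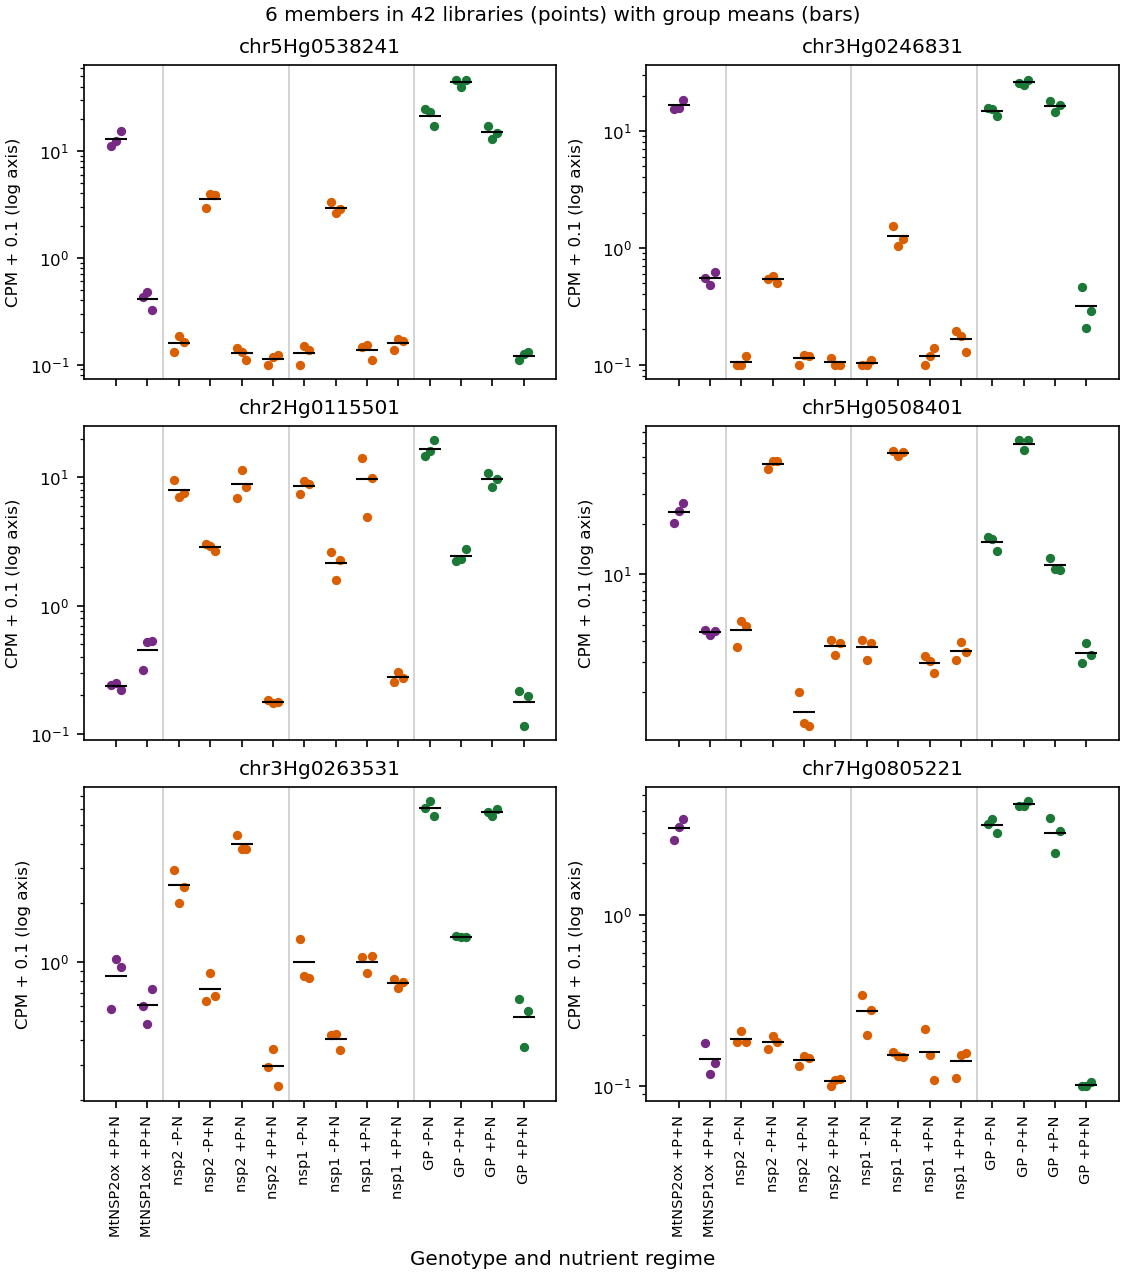
CPM + 0.1 on a log axis is shown for 6 members in all 42 libraries, with a point for each library and a bar for the group mean (purple overexpression lines, orange mutants, green GP). chr5Hg0538241 and chr3Hg0246831 keep a response to -P+N only, chr2Hg0115501 responds in every regime in both mutants, chr5Hg0508401 keeps its -P+N response, chr3Hg0263531 differs between nsp2 and nsp1 at +P-N, and chr7Hg0805221 stays low in both mutants.

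Because both single starvations were set against the same +P+N libraries, they were also compared directly, a test added after the values were seen. In nsp2, 22 members were higher at -P+N than at +P-N and 25 were lower, and in nsp1 26 were higher and 19 lower. The background was 23.7% higher and 20% lower in nsp2, and 25.1% and 20.8% in nsp1. In both mutants, 20 members were higher at -P+N (90.9% of the nsp2 calls and 76.9% of the nsp1 calls) and 18 were lower (72% and 94.7%). The same overlap over all genes was not computed and neither overlap was tested, so these shares show nothing particular to the members. The single starvation that left the higher level thus differed from member to member. The other 930 induced genes were split too, with 27.7% higher and 45.3% lower in nsp2, and 34.6% and 41.2% in nsp1. A mixed direction was thus not particular to the members.

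All 6 members of the run beside CCD8 and MAX1 were higher at -P+N in both mutants, although the call on chr3Hg0246821 in nsp2 rests on 6 counts against 0, which shows no increase over the floor of 3 counts per library (0.584-fold). In nsp1 it was at least 2.74-fold higher, on 23 counts against 0. In chr3Hg0246831 the nsp2 libraries had 0.440, 0.468 and 0.403 CPM at -P+N, against 0, 0.0203 and 0.0186 CPM at +P-N (log2 fold change 4.94 ± 0.47 SE). In nsp1 it had 1.42, 0.937 and 1.09 CPM at -P+N, against 0, 0.0174 and 0.0379 CPM at +P-N (5.98 ± 0.41 SE). MAX1, within the run, differed by 3.05 ± 0.12 in nsp2 and 3.27 ± 0.19 in nsp1 (SE). PSY, on chromosome 5, differed by 3.67 ± 0.18 and 3.49 ± 0.10 (SE). Of the 11 named pathway identifiers, 3 were higher and 4 lower at -P+N in nsp2, and 5 were higher and 4 lower in nsp1. GGPPS, PSY and MAX1 were higher in both mutants, whereas DXS, ZDS, CRTISO and CCD7 were lower in both, as was chr2Hg0150361 beside ZDS. CCD8 (chr3Hg0246861) passed in nsp1 alone, on 18 counts against 0 (at least 2.09-fold higher). D27 passed in nsp1 and not in nsp2, and of its neighbours chr7Hg0781111 passed in nsp1 alone. Lower at -P+N in both mutants were chr2Hg0115501, chr1Hg0044421, the pair chr3Hg0263531 and chr3Hg0263541, and chr6Hg0605241, which had 0.0937, 0.0971 and 0.0741 CPM at -P+N, against 0.560, 0.569 and 0.819 CPM at +P-N in nsp2 (-2.86 ± 0.28 SE). In nsp1, chr6Hg0605241 had 0.0889, 0.162 and 0.0983 CPM at -P+N, against 0.340, 0.305 and 0.275 CPM at +P-N (-1.36 ± 0.30 SE). One member, chr5Hg0536001, singled out, like chr6Hg0605241, after its values were seen, passed with opposite signs, at -0.40 ± 0.13 in nsp2 and 0.58 ± 0.17 in nsp1 (SE). In GP the difference between the 2 single starvations ran over the members from -2.97 log2 units in chr1Hg0044421 to 2.45 in chr5Hg0457731.

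**Figure D5:**
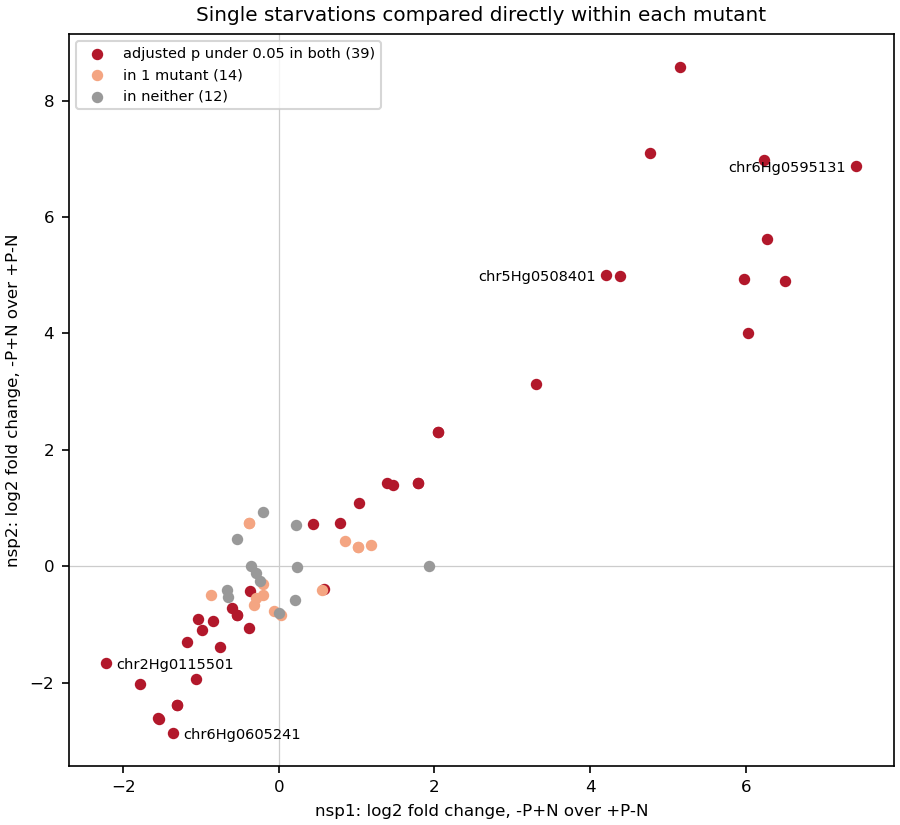
Each point is a member, at its edgeR log2 fold change of -P+N over +P-N in nsp1 (x axis) and nsp2 (y axis), coloured by whether it passed in both mutants (39), 1 mutant (14) or neither (12). chr6Hg0595131 and chr5Hg0508401 lie far to the upper right, and chr2Hg0115501 and chr6Hg0605241 to the lower left.

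Set beside GP in the same regime, with no test because those GP libraries chose the members, the median member was -1.57 log2 units from GP in nsp2 and -1.55 in nsp1 at -P+N, and -1.28 and -1.80 at +P-N. At +P+N the medians were -0.19 and 0.04. The other 930 induced genes had medians of -0.18 and -0.10 at -P+N, -0.14 and -0.15 at +P-N, and -0.09 and 0.55 at +P+N.

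The 2 mutants were compared with each other to see where nsp2 differed from nsp1, in which other NSP1 copies may remain. At +P+N none of the members was higher in nsp2 than in nsp1 and 15 were lower, where 4.8% of genes were higher and 7.11% lower. At an unadjusted p under 0.05, 5 were higher, and DESeq2 called 0 higher. Of the other 930 induced genes 460 were lower in nsp2, so a lower level there was shared with them. The share of counts taken by the co-varying genes ran from 72.9% to 87.1% in nsp2 and from 80.8% to 84.3% in nsp1 at +P+N, and its part in the difference was not tested. At -P+N 6 members were higher in nsp2 and 10 lower (background 2.89% and 5.12%), and at +P-N 7 were higher and 2 lower (0.709% and 1.13%). Of the other 930 induced genes 5.05% were higher and 18.1% lower at -P+N, and 3.23% and 2.37% at +P-N. The share lower at -P+N, 15.4% of the members, was thus not particular to them. The 10 lower at -P+N make up 7 distinct profiles, and 6 of the 10 lay near a named identifier. MAX1 and GGPPS were also called lower, but GGPPS has the counts of chr6Hg0595131 and MAX1 nearly those of chr3Hg0246891.

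In the run on chromosome 3, 5 of the 6 members were lower in nsp2 than in nsp1 at -P+N. Within this run the rows of chr3Hg0246831, chr3Hg0246841 and chr3Hg0246851 are nearly identical and count as 1 profile. In chr3Hg0246841, nsp2 had 0.253, 0.247 and 0.189 CPM at -P+N and nsp1 0.721, 0.477 and 0.659 CPM (log2 fold change -1.43 ± 0.24 SE, edgeR adjusted p = 0.0049). In chr3Hg0246851 the difference was -1.40 ± 0.32 (SE, edgeR adjusted p = 0.022). In chr3Hg0246901, nsp2 had 0.799, 0.620 and 0.651 CPM at +P-N and nsp1 1.18, 1.69 and 1.58 CPM (-1.09 ± 0.17 SE, edgeR adjusted p = 0.011). For chr5Hg0508401 at +P-N, nsp2 had 1.91, 1.20 and 1.16 CPM and nsp1 3.19, 2.97 and 2.49 CPM (-1.01 ± 0.18 SE, edgeR adjusted p = 0.022). In each of these the libraries of the mutants did not overlap, which was a condition for naming them here. Some of the calls rest on single libraries. That on chr3Hg0246851 is lost without nsp1 replicate 1 or 3 or nsp2 replicate 3 (adjusted p from 0.057 to 0.11), that on chr3Hg0246901 without replicate 3 of either mutant (adjusted p = 0.069), and that on chr5Hg0508401 without any 1 nsp1 library or nsp2 replicate 3 (adjusted p from 0.052 to 0.11).

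The clearest opposite case was the adjacent pair chr3Hg0263531 and chr3Hg0263541, which count as 1 profile. At +P-N, chr3Hg0263531 had 4.31, 3.67 and 3.65 CPM in nsp2 and 0.958, 0.776 and 0.977 CPM in nsp1 (log2 fold change 2.11 ± 0.11 SE, edgeR adjusted p = 1.8e-05), and 5.70, 5.41 and 5.89 CPM in GP. At -P+N it had 0.534, 0.777 and 0.576 CPM in nsp2 and 0.326, 0.332 and 0.256 CPM in nsp1 (1.03 ± 0.21 SE, edgeR adjusted p = 0.015). At +P+N the order was reversed, with 0.195, 0.264 and 0.134 CPM in nsp2 and 0.717, 0.641 and 0.697 CPM in nsp1. The nsp1 libraries at +P-N and +P+N were thus close together in this gene, while those of nsp2 were far apart. The call at -P+N on chr3Hg0263531 is lost without nsp1 replicate 3 (adjusted p = 0.074), and that on chr3Hg0263541 (1.02 on the log2 scale, edgeR adjusted p = 0.018) without nsp1 replicate 2 (0.052) or 3 (0.087) or nsp2 replicate 2 (0.062) or 3 (0.054). The largest drops in nsp2 at +P+N were in chr3Hg0246831, with 1 count in nsp2 and 18 in nsp1 (ratio 0.0585, counting interval 0.0014 to 0.371), and in chr5Hg0569981, with 0.0417, 0.123 and 0.0445 CPM in nsp2 and 0.335, 0.566 and 0.458 CPM in nsp1 (-2.62 ± 0.42 SE, edgeR adjusted p = 0.0032). The call on chr3Hg0246831 is lost without a filter (adjusted p = 0.058), with DESeq2 (adjusted p = 0.051) and without any 1 library other than nsp2 replicate 1 (adjusted p from 0.051 to 0.15).

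The signed log2 change over +P+N was also compared between the mutants, in a single edgeR fit over 12 libraries added after the values were seen. At +P-N it was higher in nsp2 than in nsp1 for 18 members and lower for 2. Of genes tested, 3.92% were higher and 2.76% lower. The 2 members fell at +P-N in both mutants, and fell further in nsp2. For -P+N the signed change was higher for 15 and lower for 5, where 5.66% of genes were higher and 3.08% lower. Among the other 930 induced genes it was higher for 428 at +P-N and 414 at -P+N. The +P+N libraries, in which 15 members were lower in nsp2, enter both differences.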

How the data were processed

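The authors checked reads with FastQC, aligned paired-end reads of poly(A) RNA to the Golden Promise genome with STAR and made the deposited counts per gene with featureCounts (Rsubread). Versions, strand and the handling of multiply mapped reads are not given in the sources used here. The methods of the study name 2 sequencing providers and assign no library to either. Every count column was mapped to a sample (0 unmapped). Counts were scaled by TMM, and genes with 10 counts in the median library (0.0833 CPM) in at least 3 of 42 libraries were tested with edgeR 4.0.16 (R 4.3.3) by the quasi-likelihood test on the 6 libraries compared, with Benjamini-Hochberg adjustment over all 46523 genes. SE is the log2 fold change over the root of F. DESeq2 1.42.0 was an alternative. The edgeR fit was tested on simulated counts for nsp1 at +P-N over +P+N and for MtNSP2ox over MtNSP1ox. The genes changed there had an expected count of at least 10, so members near 0 counts were not covered. DESeq2 and the other comparisons were not simulated. The members and lists were chosen with earlier results of these data known; 8 comparisons were planned and 4 added after the values were seen. Named members were the 6 with the largest GP -P-N change, the 14 within 50 identifier numbers of a pathway gene, the 2 largest calls in each direction per planned test with libraries that did not overlap, and those at the thresholds. The M. truncatula tables were not used.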

Additional observations from a re-analysis of the deposited data

Results flagged for a closer look

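The response to starvation was compared between the mutants in one edgeR fit over 12 libraries (the log2 change over +P+N in nsp2 minus that in nsp1), a comparison added after the values were seen. At +P-N 18 members had a higher response in nsp2 and 2 a lower one, where 3.92% of genes were higher and 2.76% lower. At -P+N 15 were higher and 5 lower, where 5.66% were higher and 3.08% lower. Among the other 930 starvation-induced genes 46% were higher and 1.4% lower at +P-N, and 44.5% and 1.18% at -P+N. The members had smaller shares of higher responses, 27.7% at +P-N and 23.1% at -P+N. The +P+N libraries, in which 15 members were lower in nsp2, enter both differences. Without nsp2 +P+N replicate 3 or nsp2 +P-N replicate 1 the 18 become 10, and without nsp1 +P+N replicate 2 they become 11.

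The largest differences were in the adjacent pair chr3Hg0263531 and chr3Hg0263541, at 3.87 and 3.79 log2 units at +P-N (edgeR adjusted p = 1e-06 and 1.8e-06) and 2.83 and 2.71 at -P+N (edgeR adjusted p = 1e-04 and 2e-04). The members with a lower response in nsp2 at +P-N were chr5Hg0508401, at -1.12 (edgeR adjusted p = 0.012), and chr7Hg0732031, at -0.552 (edgeR adjusted p = 0.027). Both fell at +P-N in both mutants and fell further in nsp2, so lower refers here to the signed change. At -P+N the lowest were chr3Hg0246891, whose row is nearly that of MAX1, at -1.32 (edgeR adjusted p = 0.012), and chr6Hg0674121, near LUT5, at -1.09 (edgeR adjusted p = 0.023).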

How the results depend on the processing

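Direction was checked for the largest calls of each planned comparison whose libraries did not overlap. None of these calls changed direction under any alternative run. Values of other genes and of the added comparisons were not checked for direction. Of the counts of calls under alternatives, 379 stayed within 1.5 times the reported value and 39 did not. Of the values of those largest calls, 339 kept their side of the threshold and 39 lost the call. With DESeq2, members lower at +P-N in nsp1 were 1 in place of 6. With all 14 groups in one fit, nsp2 over nsp1 at +P+N gave 4 higher and 24 lower in place of 0 and 15, and MtNSP2ox over MtNSP1ox gave 0 lower in place of 1. Counting 1 member per near-identical set gave 3 higher in nsp2 over nsp1 at -P+N in place of 6. At a fold over 1.5 the members with a lower response to +P-N in nsp2 were 1 in place of 2. The number of members was 41 with log2(mean + 0.5). The causes were not tested. Leaving out 1 library gave 2 to 5 lower at +P-N in nsp1, 0 to 1 lower at -P+N in nsp2, 0 to 1 higher at +P+N, 0 to 2 lower at +P-N and 2 to 8 higher at -P+N in nsp2 over nsp1, 0 to 3 lower in MtNSP2ox over MtNSP1ox, and 10 to 18 higher and 1 to 2 lower responses to +P-N. Replicate numbers did not pair the libraries, since in no comparison did every same-numbered pair correlate over 0.1. With the replicate number as a block, MtNSP2ox over MtNSP1ox gave 45 higher and 1 lower, nsp2 46 higher at -P+N and 36 at +P-N, and nsp1 47 and 36. The block gave 1 lower in nsp2 over nsp1 at +P-N in place of 2, and 11 higher responses to +P-N in nsp2 in place of 18. Depth limits members with few counts in the mutants, whose ratios carry wide counting intervals.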
